A study of Mus musculus with 8 samples.

Results

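The Eph receptors, the ephrins, the Slits, the Robo receptors, the netrins and the netrin receptors of the Unc5, DCC and neogenin families are the classical guidance cues of growing axons. The 38 protein-coding genes described here were chosen by symbol alone, out of 54752 genes in the count files. They comprise 9 EphA receptors, 5 EphB receptors, 5 ephrin-A ligands, 3 ephrin-B ligands, 3 Slit ligands, 3 Robo receptors, 4 netrin ligands, 4 Unc5 receptors, and *Dcc* with *Neo1*. No expression value was used to choose them, although earlier results of these data were known at the time. Their messenger RNA was measured by bulk RNA-seq in the brain of wild type C57BL/6 (C57BL/6Slac in the methods) mouse embryos at E15.5, during cortical neurogenesis. The stress group (n = 4, 2 females and 2 males) came from a dam exposed to chronic unpredictable mild stress during pregnancy, and the control group (n = 4, 2 females and 2 males) from a dam left in the home cage. The study describes the tissue as whole brain with forebrain, midbrain and hindbrain, while its library table enters it as half_whole_brain. In that table the 4 controls share 1 litter and the 4 stressed fetuses share 1 other, which means that a litter effect and a stress effect cannot be told apart, and the p-values measure the spread between littermates. Brains are named by group, sex letter and animal number, for example control F36.

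Eph receptors are tyrosine kinases on the cell surface, and their ephrin ligands are anchored in the membrane of the neighbouring cell, ephrin-A by a lipid anchor and ephrin-B by a transmembrane segment that can itself signal backwards. Contact between them usually repels growth cones and sorts cells at boundaries. Slits are secreted repellents read by Robo receptors, which keep axons from recrossing the midline. Netrins are secreted and attract axons through DCC or repel them when Unc5 receptors take part. In the fetal brain these cues set up the commissures, the thalamocortical and corticospinal tracts and the topographic maps, and several of them also act on migrating neurons and blood vessels.

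The libraries held 25320109 to 29105710 counts assigned to genes, the fewest in stress F35 and the most in stress M29. Levels are given as CPM, the counts of a gene scaled to a common library size, on totals scaled by the trimmed mean of M-values (TMM). A gene was called higher or lower in stress when edgeR's quasi-likelihood test, fitted with a sex term, gave a Benjamini-Hochberg adjusted p under 0.05 over the 17865 genes that passed the filter on low counts. By this rule 6.49% of all genes tested were called higher and 7.27% lower, 13.8% in either direction. In bulk tissue, fewer cells of a type and less RNA per cell cannot be told apart.

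Levels were compared between genes only as CPM per kilobase of exon, and 37 of the 38 genes were far enough above 0 to be tested. *Efnb3*, the ephrin that forms a midline barrier to corticospinal axons, had the highest level, 72.5 ± 2.60 CPM per kb in controls (SD, n = 4). *Neo1* (33.1 ± 0.535), the neogenin receptor that also binds repulsive guidance molecules, and *Efnb2* (28.3 ± 0.495) came next. *Efna2* (24.1 ± 0.0699), *Epha4* (24.0 ± 0.866) and *Efnb1* (23.6 ± 0.766) followed, and *Efna2* and *Efnb1* lay within 1 SD of *Epha4*. Among the receptors for secreted cues *Robo2* stood at 19.0 ± 0.600, *Robo1* at 14.6 ± 0.398, *Unc5a* at 12 ± 0.429 and *Dcc* at 5.19 ± 0.188 CPM per kb. *Slit1* (15.1 ± 0.299) and *Ntn1* (11.8 ± 1.13) led the secreted ligands, well above *Slit2* (2.20 ± 0.196) and *Slit3* (1.15 ± 0.0800). The exon length behind *Slit2* is 25433 bases, the longest of the set, since all annotated exons of a gene are merged. The low end held *Epha6* (0.736 ± 0.0718), *Epha2* (0.495 ± 0.0434) and *Epha1* (0.188 ± 0.0541), the last a receptor known mainly from epithelia.

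**Figure D1:**
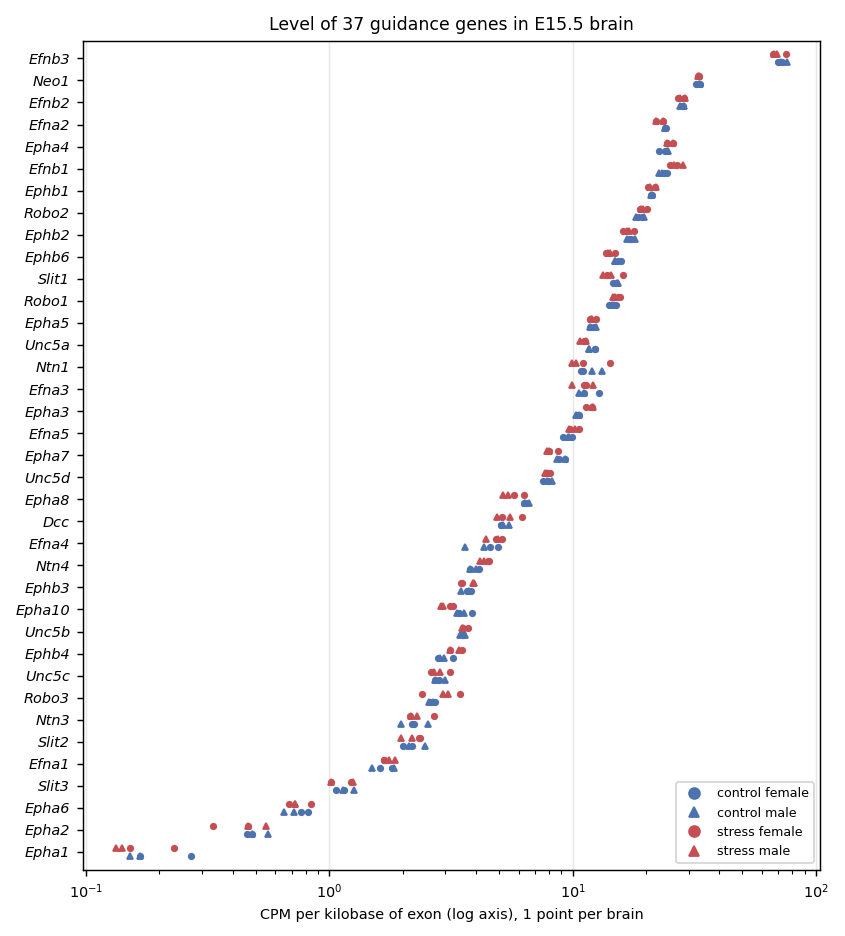
Level of the 37 tested guidance genes in each of the 8 brains, as CPM per kilobase of exon on a log axis, ordered by level, with blue for control, red for stress, circles for females and triangles for males. The levels ran from 72.5 CPM per kb for *Efnb3* to 0.188 for *Epha1* (control means), and for all but 6 genes the control and stress points overlap.

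*Ntn5*, the netrin left out of the tests, had 1 count in control F36, 0 in the other 3 control brains, and 1, 2, 4 and 6 counts in stress F34, F35, M28 and M29. No fold is given for so few counts, and 23.4% of its exon bases are shared with *Sec1* on the opposite strand, whose reads cannot be separated because the counting used no strand.

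In the comparison of stress vs. control, which asks whether maternal stress altered fetal brain transcription, the set as a whole showed small differences in both directions. Of the 37 genes tested, 6 were called (16.2%, against 13.8% of all genes tested), so the share was close to the background. DESeq2 called 5 of them, the same genes without *Unc5a*, 2 higher and 3 lower, where it called 4.19% of all genes higher, 5.1% lower and 9.29% in either direction. *Epha3* and *Efnb1* were higher in the stressed brains. *Epha7*, *Epha8*, *Epha10* and *Unc5a* were lower. Leaving out 1 brain at a time gave 2 or 3 genes called higher. It gave 2 called lower without control M30 or without stress M29, and 7 without stress F34, where *Ephb6*, *Efnb3*, *Slit1* and *Ntn1* were added. The share of all genes called in those fits was not computed, so these counts have no background beside them. The median Log2FC of the 37 genes was 0.00365, against 0.00148 for all genes tested, and 19 of 37 were above 0 (50.6% of all genes). *Efnb1* and *Epha3* were 12.9% and 13.3% above control, and the lower genes fell by 7.73% (*Unc5a*) to 14.2% (*Epha10*). In 25 of the 37 the absolute Log2FC was under 0.1 (57% of all genes tested), and the standard error (SE) had a median of 0.0465, with a range of 0.0257 to 0.245.

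**Figure D2:**
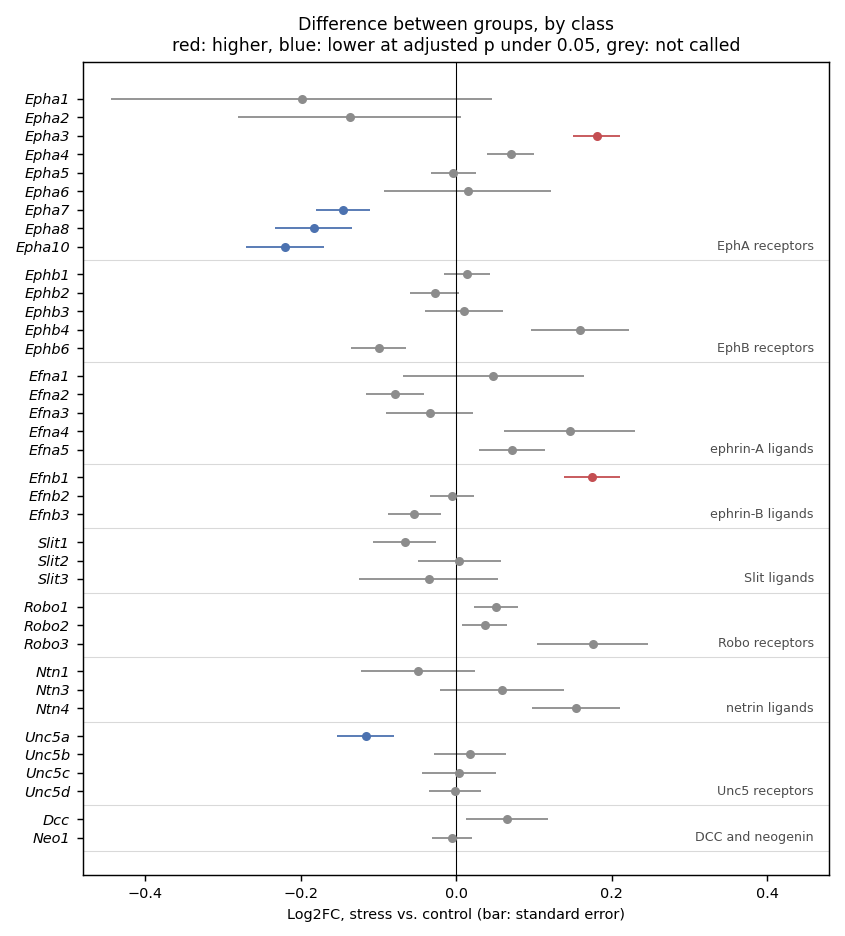
Log2FC of stress vs. control for 37 guidance genes grouped by class, each point with its SE from edgeR's quasi-likelihood fit over 8 brains. Red marks the 2 genes called higher and blue the 4 called lower (6.49% and 7.27% of all genes tested), 3 of them EphA receptors. The widest bar belongs to *Epha1*, the gene with the lowest level.

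The promoters of 4 of the called genes are printed here because their fold changes recur below, *Epha3* and *Efnb1* from the higher side and *Epha7* and *Epha8* from the lower. Each is the stretch of 250 bases upstream of the RefSeq transcript start in GRCm38.p6, read 5′ to 3′ on the gene's strand. Capitals mark every GGGCGG and its reverse complement CCGCCC, the GC box bound by Sp-family factors. The windows are chr16:63864176-63864425 (minus strand) for *Epha3*, chrX:99135811-99136060 (plus strand) for *Efnb1*, chr4:28812881-28813130 (plus strand) for *Epha7* and chr4:136956817-136957066 (minus strand) for *Epha8*.
Epha3: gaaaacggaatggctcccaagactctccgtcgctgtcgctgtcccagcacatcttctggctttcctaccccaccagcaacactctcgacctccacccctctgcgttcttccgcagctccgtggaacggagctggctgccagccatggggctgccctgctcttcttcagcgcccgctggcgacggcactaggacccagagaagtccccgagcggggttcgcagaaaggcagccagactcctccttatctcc
Efnb1: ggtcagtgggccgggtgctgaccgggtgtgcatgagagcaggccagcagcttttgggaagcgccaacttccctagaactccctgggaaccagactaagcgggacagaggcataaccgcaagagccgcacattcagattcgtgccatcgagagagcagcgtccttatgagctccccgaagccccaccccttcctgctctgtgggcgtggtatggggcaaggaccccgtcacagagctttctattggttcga
Epha7: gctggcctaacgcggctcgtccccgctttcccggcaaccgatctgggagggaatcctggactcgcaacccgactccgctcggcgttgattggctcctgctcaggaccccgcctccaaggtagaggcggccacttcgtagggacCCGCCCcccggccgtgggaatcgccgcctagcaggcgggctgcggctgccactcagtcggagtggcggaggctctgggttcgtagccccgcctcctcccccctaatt
Epha8: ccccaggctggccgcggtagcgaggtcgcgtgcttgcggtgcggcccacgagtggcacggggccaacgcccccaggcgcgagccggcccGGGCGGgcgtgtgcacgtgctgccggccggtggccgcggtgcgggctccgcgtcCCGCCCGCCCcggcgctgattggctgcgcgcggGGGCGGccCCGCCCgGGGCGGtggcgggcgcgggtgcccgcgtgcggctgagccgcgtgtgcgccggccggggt

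The windows of *Epha3* and *Efnb1* held no GC box, that of *Epha7* held 1 and that of *Epha8* held 6, with overlapping matches counted separately. The windows of *Unc5a* and *Epha10*, not printed, held 5 and 2. The *Epha10* window lies inside the gene as counted, the RefSeq start being 886 bases beyond the counted start. A window matched by symbol was used for 33 of the 38 genes, at the RefSeq start nearest the counted gene start. *Dcc* was left out, and for *Robo1* the start used lay 354843 bases inside the gene. A GC box was present in 24 of the 33, against 32.9% of 27018 gene windows of the same length. Those windows took the first listed start of each gene and were not selected for protein-coding genes, so the 2 sets are not fully alike. GC content had a median of 65.6% in the 33 windows against 52.0% in all, and the number of CpG dinucleotides a median of 17 against 6, so the base composition of the 33 windows differed from that of all windows. CCAAT (or ATTGG) was present in 12 of 33 (34.5% of all windows), TTTGAA (or TTCAAA) in 2 of 33 (16.3%), CAGCTG in 5 of 33 (12.8%) and TATAAA (or TTTATA) in 2 of 33 (13.0%). A match describes letters in the window and does not show a bound factor.

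Among the EphA receptors, 1 of 9 was called higher and 3 lower, against 6.49% and 7.27% of all genes tested. *Epha3*, a receptor of ephrin-A ligands, measured 90.4, 92.4, 89.6 and 92.6 CPM in control F36, F37, M30 and M31, and 98.4, 105, 105 and 105 CPM in stress F34, F35, M28 and M29. All stressed brains lay above all controls, with F34 the nearest to them. The Log2FC was 0.18 ± 0.03 (SE; adjusted p = 0.000256, edgeR quasi-likelihood test with Benjamini-Hochberg adjustment), and the call held in all 8 fits that left out 1 brain. *Epha10*, a receptor whose kinase domain is inactive, measured 27.9, 24.5, 24.1 and 25.8 CPM in control F36, F37, M30 and M31, and 23.2, 22.7, 20.8 and 21.2 CPM in stress F34, F35, M28 and M29. Here too the groups were apart, with the lowest values in the stressed males. *Epha10* had the largest fall of the called genes, with a Log2FC of -0.22 ± 0.05 (adjusted p = 0.00364, same edgeR test), and was called in all 8 fits without 1 brain.

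*Epha7*, known in topographic mapping and in closure of the neural folds, measured 86.7, 92.2, 85.2 and 92.1 CPM in control F36, F37, M30 and M31, and 79.4, 86.3, 78.8 and 77.8 CPM in stress F34, F35, M28 and M29. The groups overlapped through stress F35, which lay above control M30. The Log2FC was -0.15 ± 0.04 (adjusted p = 0.00614, edgeR quasi-likelihood test with Benjamini-Hochberg adjustment) and the call held in all 8 fits without 1 brain. *Epha8*, a receptor of the developing midbrain, measured 30.4, 29.69, 31.09 and 29.99 CPM in the same 4 controls, and 29.8, 27.0, 25.7 and 24.3 CPM in stress F34, F35, M28 and M29. Stress F34 lay inside the control range and the other 3 below it. Its Log2FC was -0.18 ± 0.05 (adjusted p = 0.0132, same test), and the call was lost without control M30 (adjusted p = 0.0661, edgeR) and without stress M29 (adjusted p = 0.0807, edgeR).

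The other 5 EphA receptors did not pass the test. *Epha4*, which binds ephrins of both classes and keeps corticospinal axons from crossing back, had a Log2FC of 0.07 ± 0.03 at 193 ± 6.97 CPM in controls. *Epha5*, a mapping receptor of the retina and cortex, was at 0.00 ± 0.03 with 202 CPM in each group. *Epha6*, a close relative of *Epha5*, was at 0.01 ± 0.11 (3.89 ± 0.380 CPM in controls). The scarce *Epha1* (-0.20 ± 0.25) and *Epha2* (-0.14 ± 0.14), both mainly epithelial receptors, had differences smaller than their SE. Summed over the class, EphA receptors reached 65.4 to 68.2 CPM per kb in controls and 66.0 to 68.2 in stressed brains.

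None of the 5 EphB receptors was called by edgeR or by DESeq2, and 2 of them had an unadjusted p under 0.05 in edgeR. *Ephb6*, another receptor without kinase activity, measured 56.2 to 59.5 CPM in controls and 51.9 to 56.4 in stressed brains, a Log2FC of -0.10 ± 0.04 (adjusted p = 0.0638, edgeR with Benjamini-Hochberg adjustment). *Ephb4*, the receptor of venous endothelium, measured 13.0 to 14.9 CPM in controls and 14.6 to 16.3 in stressed brains, a Log2FC of 0.16 ± 0.06 (adjusted p = 0.0948, same test). The groups overlapped for both. *Ephb1*, which directs uncrossed retinal axons at the optic chiasm, was at 0.01 ± 0.03. *Ephb2* and *Ephb3*, which act together in the formation of commissures, were at -0.03 ± 0.03 and 0.01 ± 0.05.

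*Efnb1*, an X-linked transmembrane ephrin whose loss in humans causes craniofrontonasal syndrome, was the 1 ligand called among the 14 tested. It measured 82.3, 84.6, 80.8 and 78.3 CPM in control F36, F37, M30 and M31, and 92.6, 86.7, 98.0 and 90.6 CPM in stress F34, F35, M28 and M29. All stressed brains lay above all controls, with stress F35 the nearest. The Log2FC was 0.18 ± 0.04 (adjusted p = 0.00157, edgeR quasi-likelihood test with Benjamini-Hochberg adjustment), and the call held in all 8 fits without 1 brain. The other ephrin-B ligands were *Efnb2*, the ephrin of arterial endothelium, at -0.01 ± 0.03 and *Efnb3* at -0.05 ± 0.03, neither called.

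*Efna2*, a lipid-anchored mapping ligand, also separated the groups without passing the test. Its levels were 51.4, 51.5, 51.2 and 51.3 CPM in control F36, F37, M30 and M31, and 50.0, 47.0, 50.3 and 47.1 CPM in stress F34, F35, M28 and M29. The controls were unusually close together (coefficient of variation 0.290%) and the stressed brains spread more widely (3.74%). The Log2FC was -0.08 ± 0.04 (adjusted p = 0.175, edgeR with Benjamini-Hochberg adjustment). *Efna5*, the ligand that forms the collicular gradient, was at 0.07 ± 0.04, *Efna1*, a vascular and inflammatory ephrin, at 0.05 ± 0.12, *Efna3* at -0.03 ± 0.06 and *Efna4* at 0.15 ± 0.08, none of them called. *Efna3* and *Efna4* share 14.1% and 10.5% of their exon bases with transcripts on the opposite strand, which the counting could not separate.

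None of the 3 Slit and 3 Robo genes was called by edgeR or DESeq2, and 1 of the 6, *Robo3*, had an unadjusted p under 0.05 in edgeR. *Slit1*, a Slit of the forebrain, was at -0.07 ± 0.04, *Slit2* at 0.00 ± 0.05 and *Slit3* at -0.04 ± 0.09. *Robo1* and *Robo2*, the receptors that carry most Slit repulsion, were at 0.05 ± 0.03 and 0.04 ± 0.03. *Robo3*, a divergent receptor needed for commissural axons to cross the midline, measured 18.6, 17.8, 17.6 and 18.3 CPM in control F36, F37, M30 and M31, and 23.7, 16.5, 20.1 and 21.2 CPM in stress F34, F35, M28 and M29. Stress F35 lay below every control and the other 3 stressed brains above them, and the Log2FC was 0.18 ± 0.07 (adjusted p = 0.108, edgeR with Benjamini-Hochberg adjustment). Without stress F35 it was 0.27 and called (adjusted p = 0.00193, edgeR), and without stress F34 it was 0.07 (adjusted p = 0.553, edgeR).

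Of the netrin receptors, *Unc5a*, a repulsive receptor that can also trigger cell death without its ligand, was the 1 called lower. It measured 51.7, 51.7, 48.6 and 48.7 CPM in control F36, F37, M30 and M31, and 46.8, 46.5, 47.2 and 44.6 CPM in stress F34, F35, M28 and M29. The groups were apart, with the control females above the control males. The Log2FC was -0.12 ± 0.04 (adjusted p = 0.0349, edgeR quasi-likelihood test with Benjamini-Hochberg adjustment). The call held in 1 of the 8 fits without 1 brain, with adjusted p up to 0.11, and was lost with DESeq2 (adjusted p = 0.0854). *Unc5b*, a receptor of endothelial tip cells, was at 0.02 ± 0.05, *Unc5c*, needed for cerebellar granule cell migration, at 0.00 ± 0.05, and *Unc5d*, which also binds FLRT proteins on migrating cortical neurons, at 0.00 ± 0.03. *Dcc* was at 0.07 ± 0.05 and *Neo1* at 0.00 ± 0.03.

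The netrins themselves were not called. *Ntn4*, a basement membrane netrin, measured 14.11, 15.43, 14.21 and 14.99 CPM in control F36, F37, M30 and M31, and 16.97, 16.81, 16.12 and 15.53 CPM in stress F34, F35, M28 and M29. Every stressed brain lay above every control, by a narrow margin between control F37 and stress M29. The Log2FC was 0.15 ± 0.06 (adjusted p = 0.0715, edgeR with Benjamini-Hochberg adjustment). *Ntn3*, a close relative of *Ntn1*, was at 0.06 ± 0.08, and *Ntn1*, the canonical attractant of commissural axons, at -0.05 ± 0.07. Without stress F34, *Ntn1* was at -0.19 and called lower (adjusted p = 0.018, edgeR). It was at 0.03 without control M30, at 0.02 without stress M29 and at -0.01 without stress M28, not called in any of the 3. Over the whole set, the groups were apart for 6 of 37 genes, 3 with stress higher (*Epha3*, *Efnb1* and *Ntn4*) and 3 lower (*Epha10*, *Efna2* and *Unc5a*), against 16.4% of all genes tested (8.19% with stress higher and 8.22% lower).

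**Figure D3:**
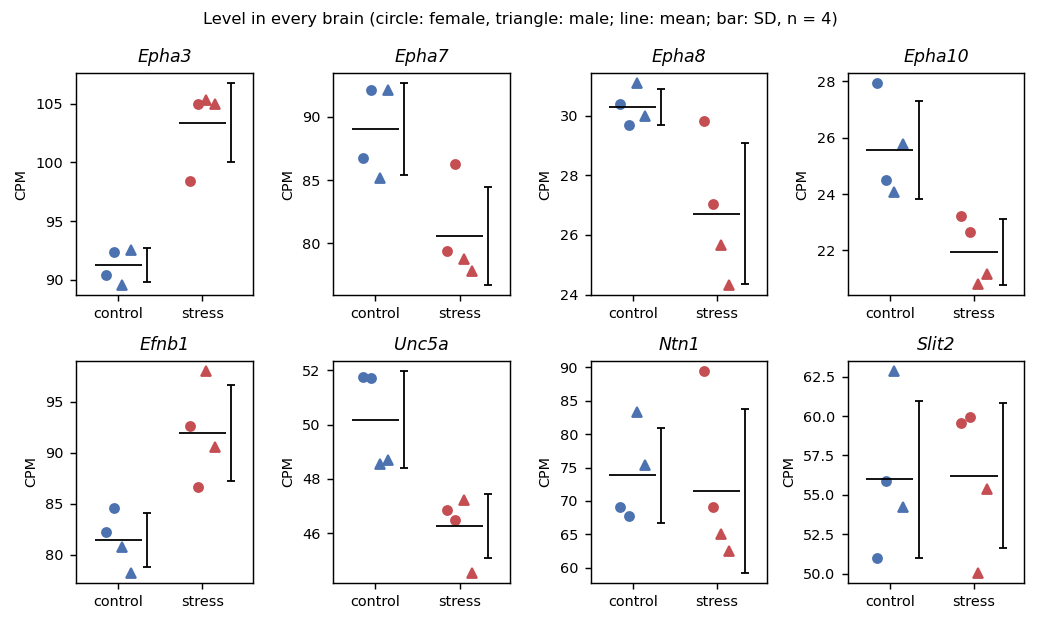
CPM of the 6 called genes and of *Ntn1* and *Slit2* in every brain, blue for control and red for stress, circles for females and triangles for males, with the group mean as a line and the SD (n = 4) as a bar, on axes that do not start at 0. *Epha3*, *Epha10*, *Efnb1* and *Unc5a* show no overlap of the groups, while for *Ntn1* the highest value (89.4 CPM) and the lowest (62.4 CPM) both belong to stressed brains.

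The difference between females and males was tested as an interaction of sex and stress. No guidance gene was called by edgeR or DESeq2 (0.0056% of all genes tested were called by edgeR), and 5 had an unadjusted p under 0.05 in edgeR. The share of all genes at that unadjusted interaction threshold was not computed, and the 0.0056% is not its background. The smallest unadjusted p belonged to *Ntn1*, which is described by brain for that reason. *Ntn1* measured 69.0, 67.7, 83.3 and 75.3 CPM in control F36, F37, M30 and M31, and 89.4, 69.1, 65.1 and 62.4 CPM in stress F34, F35, M28 and M29. In females both stressed brains lay above both controls, F34 far above and F35 just above. In males both lay below. The Log2FC was 0.22 in females and -0.31 in males, and their difference was 0.53 ± 0.10 (SE; adjusted p = 0.171, edgeR interaction with Benjamini-Hochberg adjustment).

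*Slit2*, a repellent made at the midline, showed a like arrangement, with 51.0 and 55.9 CPM in control females, 59.5 and 59.9 CPM in stressed females, 62.8 and 54.3 CPM in control males, and 50.1 and 55.4 CPM in stressed males. The female groups were apart and the male groups overlapped, and the difference between the sexes was 0.31 ± 0.09 on the log2 scale (adjusted p = 0.466, edgeR interaction). The other 3 with a small unadjusted p were *Epha8* (-0.08 in females, -0.29 in males), *Ephb3* (-0.10 and 0.11) and *Efnb1* (0.10 and 0.24). Without the filter on low counts *Ntn1* and *Slit2* were called for the interaction (adjusted p = 1.3e-10 and 0.0461, edgeR), as were 37 of all 34568 genes fitted, so these calls depended on the filter. Each sex held 2 brains a group, and each group's brains were littermates.

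Fitted alone with edgeR, the females gave 0 calls among the guidance genes (3.91% of all genes) and the males 7 (8.49% of all genes). At an unadjusted edgeR p under 0.05 there were 11 guidance genes in females and 10 in males. The share of all genes at that unadjusted threshold was not computed. The male calls were *Epha3* and *Efnb1* (higher, against 3.68% of all genes) and *Epha7*, *Epha8*, *Epha10*, *Slit1* and *Ntn1* (lower, against 4.81%). *Ntn1* in males had an adjusted p of 6.8e-05 (edgeR with Benjamini-Hochberg adjustment) and *Slit1*, at a Log2FC of -0.14, one of 0.0322. The direction was the same in both sexes for 22 of the 37 genes, including each of the 6 called over all brains. The 6 were called from these same brains, which favours such agreement, so it adds no separate support. The share of all genes with the same direction in both sexes was not computed. Between females and males, over both conditions, no guidance gene was called by edgeR (0.0896% of all genes) or DESeq2, and 1 of 37, *Efna4*, had an unadjusted p under 0.05 in edgeR.

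**Figure D4:**
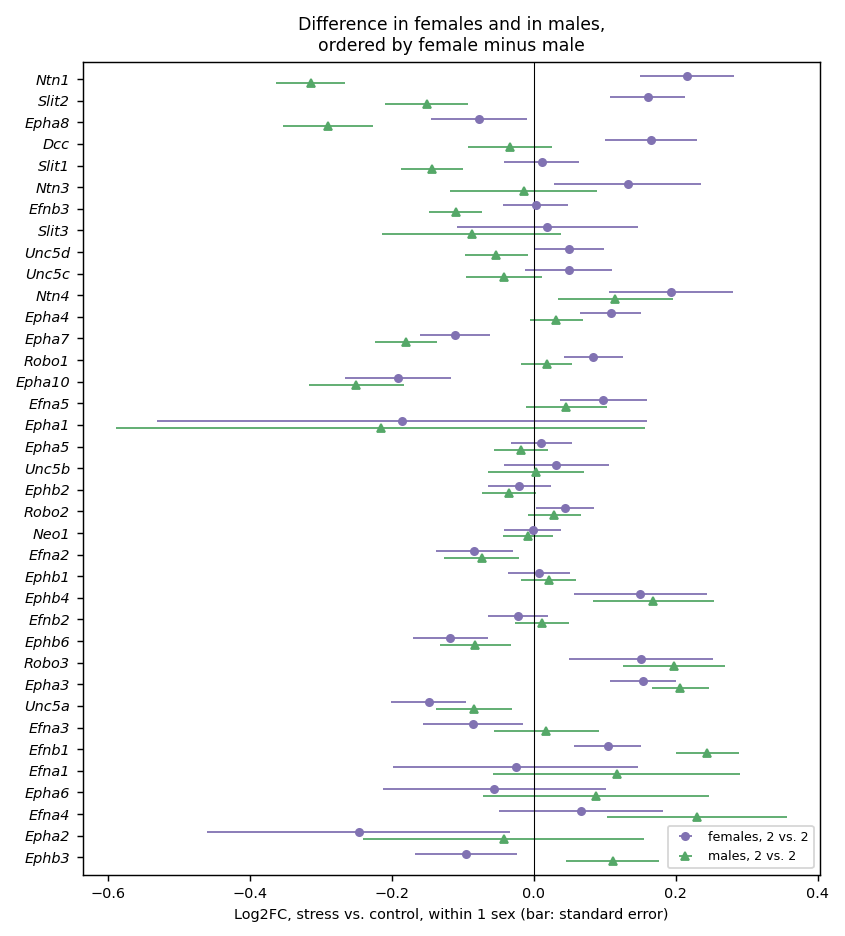
Log2FC of stress vs. control within females (circles, 2 vs. 2) and within males (triangles, 2 vs. 2) for 37 guidance genes, bars giving the SE, ordered from the most positive female minus male difference at the top. *Ntn1* leads the order at 0.22 in females and -0.31 in males, *Ephb3* closes it at -0.10 and 0.11, and the 2 points of *Epha3*, *Epha10* and *Unc5a* lie on the same side of 0.

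The receptors act through adaptors and regulators of small GTPases, and 56 of these partner genes were listed by pathway and read from the same fit. Called higher were 3 of 56 and called lower 12 of 56 (6.49% and 7.27% of all genes tested), with a median Log2FC of -0.0135. The list was drawn up with earlier results of these data known, so these shares do not make an independent comparison. In Eph and ephrin signalling 2 of 20 were lower and 0 higher. *Ngef*, the exchange factor ephexin that acts downstream of EphA receptors, measured 27.2, 25.9, 22.5 and 24.0 CPM in control F36, F37, M30 and M31, and 21.6, 20.6, 20.8 and 19.8 CPM in stress F34, F35, M28 and M29. Its groups were apart, with a Log2FC of -0.27 ± 0.05 (adjusted p = 0.000631, edgeR with Benjamini-Hochberg adjustment). *Tiam1*, a Rac exchange factor recruited by Eph receptors and ephrins, fell by 0.18 on the log2 scale.

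In Slit and Robo signalling 5 of 15 were lower and 1 higher. The lower genes were *Srgap1* (-0.12) and *Srgap2* (-0.14), GTPase-activating proteins that bind Robo, *Arhgap39* (-0.16), a further GTPase-activating protein of the pathway, *Vasp* (-0.12), an actin regulator, and *Nell2* (-0.09), a secreted ligand of Robo3. *Gpc1* (0.09), a glypican that binds Slits, was higher, and 18.9% of its exon bases are shared with *Ankmy1* on the opposite strand. *Vasp* was called in 2 of the 8 fits without 1 brain and lost with DESeq2 (adjusted p = 0.0937), *Gpc1* was called in 3 of 8 and *Nell2* in 4 of 8. In netrin, DCC and UNC5 signalling 5 of 18 were lower and 2 higher. The lower genes were *Ablim1* (-0.21), an actin-binding protein, *Trim9* (-0.14) and *Trim67* (-0.14), ubiquitin ligases that bind DCC, *Trio* (-0.11), a Rac exchange factor, and *Dapk1* (-0.09), a death-associated kinase downstream of Unc5 receptors, called in 4 of the 8 fits without 1 brain. *Siah1a* (0.14), a ubiquitin ligase that degrades DCC, and *Nova1* (0.12), a splicing factor of neurons, were higher.

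**Figure D5:**
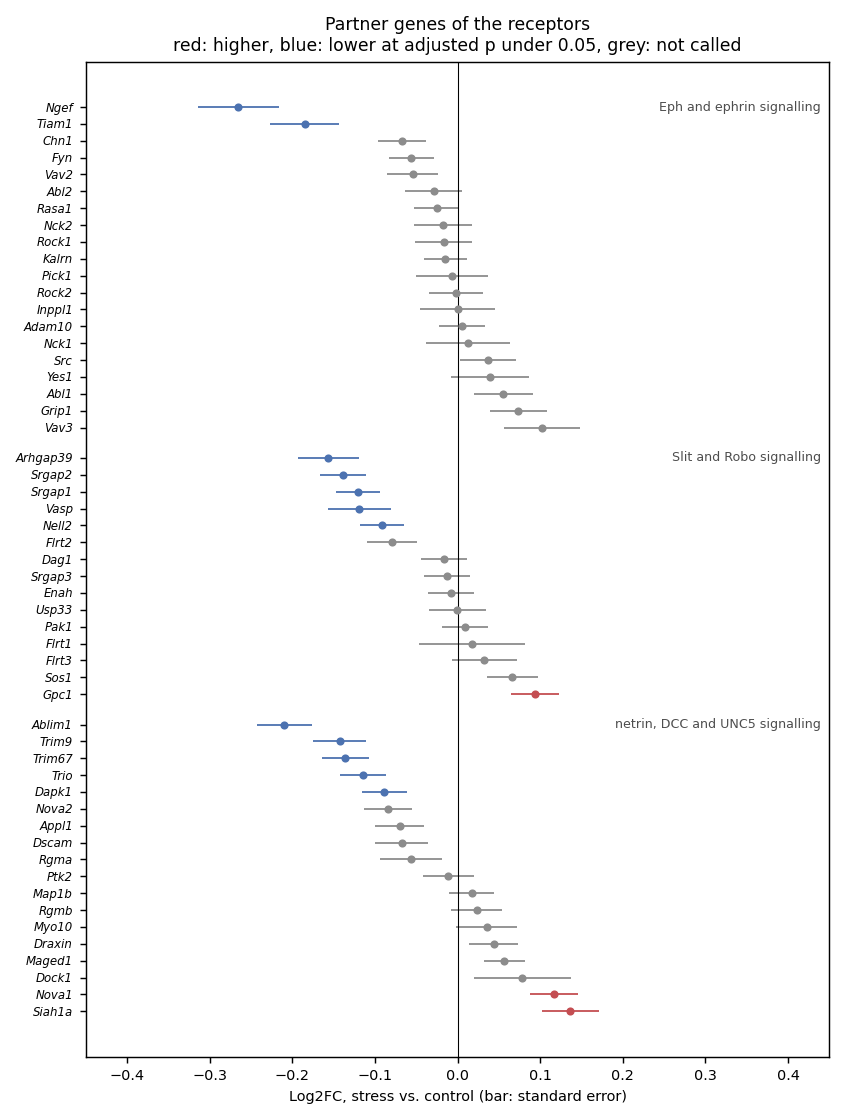
Log2FC of stress vs. control for the partner genes of the 3 pathways, bars giving the SE, red for the 3 called higher and blue for the 12 called lower. The lowest values are those of *Ngef* (-0.27) and *Ablim1* (-0.21).

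Some of the cell type and regional marker lists held many called genes, where 6.49% of all genes tested were called higher and 7.27% lower. These lists too were drawn up with earlier results of these data known. Of 11 genes of dividing cells 10 were called higher, and their summed level was 716 to 769 CPM in controls and 809 to 918 in stressed brains. Of 8 genes of intermediate progenitors 5 were higher (471 to 505 against 516 to 563 CPM), and of 10 genes of radial glia 4 were (1580 to 1680 against 1610 to 1740 CPM). Of 12 genes of post-mitotic neurons 5 were lower and 1 higher (9060 to 9250 against 8860 to 9260 CPM), and of 10 endothelial genes 6 were lower and 0 higher (189 to 208 against 170 to 181 CPM). Of 9 dorsal forebrain genes 5 were higher and 1 lower (1350 to 1400 against 1420 to 1470 CPM), and of 8 midbrain genes 2 were higher (89.7 to 102 against 107 to 116 CPM). Genes of forebrain, midbrain and hindbrain were all detected. The 8 tested hindbrain genes, with 0 called by edgeR or DESeq2 and 0 at an unadjusted p under 0.05, summed to 33.9 to 44.0 CPM in controls and 25.9 to 46.7 in stressed brains, and *Hoxd4*, whose exons lie wholly within those of other genes, was at 0 in every brain. Choroid plexus genes, 2 of 7 called higher, summed to 51.2 to 63.3 CPM in controls, to 92.4 CPM in stress F34 and to 58.2 to 67.3 CPM in the other 3 stressed brains. The 9 genes of meninges, 3 of the 8 tested higher and 1 lower, summed to 46.6 to 58.3 CPM in controls. They summed to 87.7 CPM in stress M28 and to 46.0 to 55.9 CPM in the other 3 stressed brains. Called higher were 2 of 7 genes of ventral forebrain, 2 of 7 of thalamus and hypothalamus and 1 of 7 of blood, with 1 blood gene lower. Pericytes and microglia had 0 calls by edgeR or DESeq2, with 2 of 7 and 0 of 7 genes at an unadjusted p under 0.05. The part of these cell and region differences in the guidance gene values was not tested.

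By position, 5 of the 37 genes lie on chromosome 4 (*Epha2*, *Epha7*, *Epha8*, *Epha10* and *Ephb2*), among them 3 of the 4 called lower. On that chromosome 6.20% of all genes tested were lower. They do not form a single cluster. *Ephb2*, which was not called, lies 93.4 kb from *Epha8*, while *Epha7* and *Epha10* are 95913.4 kb apart (mm10). The 3 neighbouring ephrin-A genes on chromosome 3, with *Efna1* and *Efna3* 32.8 kb apart and *Efna3* and *Efna4* 10.4 kb apart, had no call, nor had *Robo1* and *Robo2*, 845.7 kb apart on chromosome 16.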

How the data were processed

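The study's RNA-seq covered more fetal brains and more litters, in separate batches. The 8 brains used here were 4 control and 4 stress. The authors trimmed paired reads with Trim Galore, aligned them to mm10 with TopHat2 2.1.1 and deposited raw counts per gene from featureCounts 1.6.3 over GENCODE vM20 exons, with no strand option stated. Symbols and gene types were taken from GENCODE vM21 by gene identifier (54723 of 54752 matched). Counts were filtered (filterByExpr, minimum count 10, by group), scaled by TMM and fitted with edgeR 4.0.16 (glmQLFit and glmQLFTest, R 4.3.3, limma 3.58.1) on sex and condition over all genes, with Benjamini-Hochberg adjustment. Batch, which the study added to its own model, is not labelled for these brains and was left out. The SE is the absolute Log2FC divided by the square root of F. On simulated counts the fit recovered 36 of 100 changes of 0.15 on the log2 scale and 92 of 100 of 0.3, with 5 false calls. A gene not called may therefore still differ by 0.15 or more. The SE of the guidance genes reached 0.245 (*Epha1*), so larger differences in scarce genes may also go uncalled. The alternatives were DESeq2 1.42.0, RLE and upper-quartile scaling, no filter, no sex term, each sex alone and each brain left out. Every guidance gene was named, those called or with groups apart by brain, and called partner genes with their Log2FC. The guidance genes were picked by symbol, with no expression value used. Earlier results of these data were known when these genes and the lists were chosen. Promoter windows were read from RefSeq (GRCm38.p6). Total counts limit the precision for scarce genes such as *Epha1*, with 15 to 30 counts a brain. A small group among the 56 partner genes is not reported here on its own.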

Additional observations from a re-analysis of the deposited data

Results flagged for a closer look

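Of the 74 sets of 4 brains examined (37 genes in each condition), 2 held a brain far from the other 3, where chance gives about 1 in 20. *Epha1* in control F37 was at 1.06 CPM, while the other controls were at 0.597 to 0.655 CPM. *Epha3* in stress F34 was at 98.4 CPM, while the other stressed brains were all at 105 CPM.

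For 3 genes both stressed brains of one sex lay on the other side of their controls from both stressed brains of the other sex. The share of all genes with this arrangement was not computed, so the 3 cannot be set against a background. For *Ntn1* the Log2FC in females minus that in males was 0.53 (adjusted p = 0.171, edgeR interaction with Benjamini-Hochberg adjustment). For *Ephb3* this difference was -0.207 (adjusted p = 0.754) and for *Unc5d* 0.102 (adjusted p = 0.838), by the same edgeR test. None of the 3 passed the threshold, and the cause was not tested.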

How the results depend on the processing

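Under RLE and upper-quartile scaling all 37 guidance genes kept their direction and their side of the threshold. Genes called higher in stress numbered 2, and 0 in females alone. Genes called lower numbered 4, and 0 in females alone. Leaving out each brain gave 2 to 3 higher and 2 to 7 lower. The fewest lower calls came without control M30 or stress M29 (2 each), and the 7 came without stress F34, where *Ephb6*, *Efnb3*, *Slit1* and *Ntn1* were also called. For the fits with a brain left out, the share of all genes called was not computed. Partner genes called higher numbered 3, against 1 in females alone and 1 in males alone, and 2 to 3 with a brain left out. Partner genes called lower numbered 12, against 1 in females alone, 8 in males alone and 9 to 12 with a brain left out. DESeq2 called 11 of them lower, and RLE scaling gave 13. Interaction calls numbered 0, and 2 without the filter on low counts, where 37 of 34568 genes were called. *Unc5a* was lost without the sex term (adjusted p = 0.0534, edgeR), and *Robo3* was gained without the filter (adjusted p = 0.0455, edgeR). No called gene changed direction. Genes called neither over all brains nor under the setting in question changed sign in up to 9 of 37 cases per setting (females alone). The causes were not tested, except that 1 sex alone or 7 brains leave fewer samples. No paired analysis was possible because the groups share no animal numbers. With 1 litter a group, litter and condition cannot be told apart.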
